A study of Mus musculus with 2 samples.

Results

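The genes described here, with a few neighbours that share their naming, encode the machinery that displays antigen to T cells and natural killer cells. They are the 66 entries of a table of 46095 whose symbol begins with H2- (50 entries) or is one of 16 others: B2m, Tap1, Tap2, Tapbp, Tapbpl, Erap1, Nlrc5, Ciita, Cd74, Cd80, Cd86, Cd1d1, Mr1, Rfx5, Rfxank and Rfxap. Expression was measured by RNA sequencing in mouse acute myeloid leukaemia (AML) cells sorted from bone marrow for the surface proteins Mac1 and KIT, which the labels call leukaemia-initiating cells. One library was labelled wild type (WT) and 1 was labelled P2X1 knockout (P2X1-KO), both of strain C57BL/6 with a given age of 8 weeks. P2X1 is a cation channel opened by ATP and is the product of P2rx1. The protocol text gives the same cells the added names of a scrambled control and a knockdown. The sources used here do not say how the leukaemia was made, what construct targeted P2X1, or whether animals were pooled.

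MHC class I molecules consist of a heavy chain and the light chain beta-2 microglobulin, and they carry peptides made by the proteasome in the cytosol. The transporter TAP pumps these peptides into the endoplasmic reticulum, where tapasin and related proteins help to load them and the peptidase ERAP1 trims them. MHC class II molecules consist of an alpha and a beta chain, are escorted to endosomes by the invariant chain CD74, and exchange its remnant for peptide there with the help of DM. Class I genes respond to NLRC5 and class II genes to CIITA, both of which act through the RFX complex and NF-Y on promoters. Class II expression is known mainly from dendritic cells, macrophages and B cells.

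With 1 library per group no difference below has a replicate check, and no p-value was computed. Levels are counts per 1000000 (CPM) after scaling with edgeR's trimmed mean of M values (TMM), and each fold is a ratio of CPM with an exact 95% interval that covers counting error only. Where a pair of values is given without a label, the WT-labelled library comes first. Total counts were 14658620 in the WT-labelled library, with 19824 genes detected, and 9447894 in the P2X1-KO-labelled library, with 16165. P2rx1 had 27 counts in the WT-labelled library and 45 in the P2X1-KO-labelled library, 2.93-fold higher in the latter (1.78 to 4.90). That goes against the label, so the libraries are named by their labels throughout and each direction below rests on them. The sort genes were present in both: Kit had 13.3 and 19.9 CPM, and Itgam, which encodes a chain of Mac1, had 307 and 504 CPM. A lower level in bulk RNA can come from fewer cells of a type or from less RNA per cell, and these cannot be told apart.

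A few promoter sequences are shown first, chosen because they hold the known elements through which interferon, NLRC5 and CIITA act on these genes. RefSeq promoter windows on GRCm38.p6 were found for 40 of the 66 members, and the 250 bases before the start site were searched on both strands. The interferon-stimulated response element, searched as GAAA, any 2 bases and GAAA, was found in the windows of 3 member genes: B2m, H2-T22 and H2-T23. Of all 32851 windows of that length, 2.98% held it. A search for exact letters can miss variants of an element, so a gene without a match may still have one. The sites of B2m, H2-T22 and H2-T23 are shown as 30 bases, 5′ to 3′ on the gene's strand, with the element in capitals. H2-T22 and H2-T23 carry it as its reverse complement. The B2m site lies at chr2:122147538-122147567 on the plus strand, and those of H2-T22 and H2-T23 at chr17:36042914-36042943 and chr17:36032806-36032835 on the minus strand. The H2-T23 site lies before the RefSeq start but inside the gene as GENCODE annotates it, which begins farther upstream.
B2m: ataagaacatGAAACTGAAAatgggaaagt
H2-T22: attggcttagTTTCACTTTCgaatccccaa
H2-T23: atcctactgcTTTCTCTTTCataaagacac

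The X1 box, the RFX site of class II promoters, was searched as AGCAAC, any base and GATG, and was found before H2-Eb1 and H2-Eb2. It stood in 0.0578% of all windows. The sites lie at chr17:34305766-34305795 and chr17:34325533-34325562, both on the plus strand, with the box in capitals.
H2-Eb1: tctctaactAGCAACTGATGatgctggact
H2-Eb2: cctctgaccAGCAACTGATGctgctggtgc

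The Y box, the NF-Y site, was searched as ATTGG. It was found before 34 of the 40 genes, against 33.9% of all windows. The gamma-activated site, searched as TTCNNNGAA, was found before H2-DMb2, H2-M11 and H2-M3, and in 7.02% of all windows. Longer stretches are shown for the light chain gene, a classical class I gene and a class II gene, with Y boxes and response elements in capitals and bases that GENCODE annotates as exon left out. They are 249 bases of B2m at chr2:122147437-122147685 (plus strand), 236 bases of H2-K1 at chr17:34000348-34000583 (minus strand), and 250 bases of H2-Aa at chr17:34287824-34288073 (minus strand). Capitals mark exact matches to the searched letters only, so a variant of an element stays in lower case. Letters matching a motif are a description and do not show that a factor binds there.
B2m: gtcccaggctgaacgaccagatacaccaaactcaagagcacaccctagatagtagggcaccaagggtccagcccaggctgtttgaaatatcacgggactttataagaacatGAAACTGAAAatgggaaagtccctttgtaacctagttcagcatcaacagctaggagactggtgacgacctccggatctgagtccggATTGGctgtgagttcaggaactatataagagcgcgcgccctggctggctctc
H2-K1: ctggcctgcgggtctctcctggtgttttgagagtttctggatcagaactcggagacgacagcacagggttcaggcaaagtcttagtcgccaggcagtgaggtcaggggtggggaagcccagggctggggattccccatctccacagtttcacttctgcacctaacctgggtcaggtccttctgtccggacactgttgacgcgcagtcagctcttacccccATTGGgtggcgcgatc
H2-Aa: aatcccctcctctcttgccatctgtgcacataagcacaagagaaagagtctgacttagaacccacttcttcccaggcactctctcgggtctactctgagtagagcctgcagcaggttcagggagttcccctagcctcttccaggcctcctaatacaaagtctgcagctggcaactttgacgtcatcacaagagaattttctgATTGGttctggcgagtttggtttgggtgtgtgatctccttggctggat

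Most of the 66 genes had few or no counts. In both libraries 29 were at 0, and 10 had counts but fewer than 10 in each. The remaining 27 had at least 10 counts in either library, and 15 of these reached a mean of 5 CPM over both. In all, the members took 8857 counts in the WT-labelled library, or 604 per 1000000 of that library (exact 95% interval 592 to 617). They took 12112 in the P2X1-KO-labelled library, or 1282 per 1000000 (1259 to 1305). B2m alone made up 39.0% of the members' counts in the WT-labelled library (38.0 to 40.0) and 66.0% in the P2X1-KO-labelled library (65.1 to 66.8).

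Of the 15 members that reached a mean of 5 CPM, B2m, H2-T23, Cd74 and Cd80 were higher by 2-fold or more in the P2X1-KO-labelled library. Cd1d1 was the 1 member at least 2-fold lower, and 10 lay within 2-fold. The 4 higher genes were 26.7% of the 15, where 12.1% of all 10483 genes at that level were at least 2-fold higher. The 1 lower gene was 6.67%, where 10.6% of all genes were at least 2-fold lower. Counting only intervals that lay wholly beyond 2-fold left 3 higher members, without Cd80, against 9.37% of all genes, and Cd1d1 among the lower, against 6.21%. The members' median log2 difference, taken as log2(CPM + 0.5) in the P2X1-KO-labelled library minus the same in the WT-labelled library, was 0.44, and that of all genes at this level was -0.08. Scaling by total counts instead of TMM moved the median of all genes by -0.18. Under it Cd80 was 1.93-fold higher, and Rfx5 became a second lower member at 2.03-fold.

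**Figure D1:**
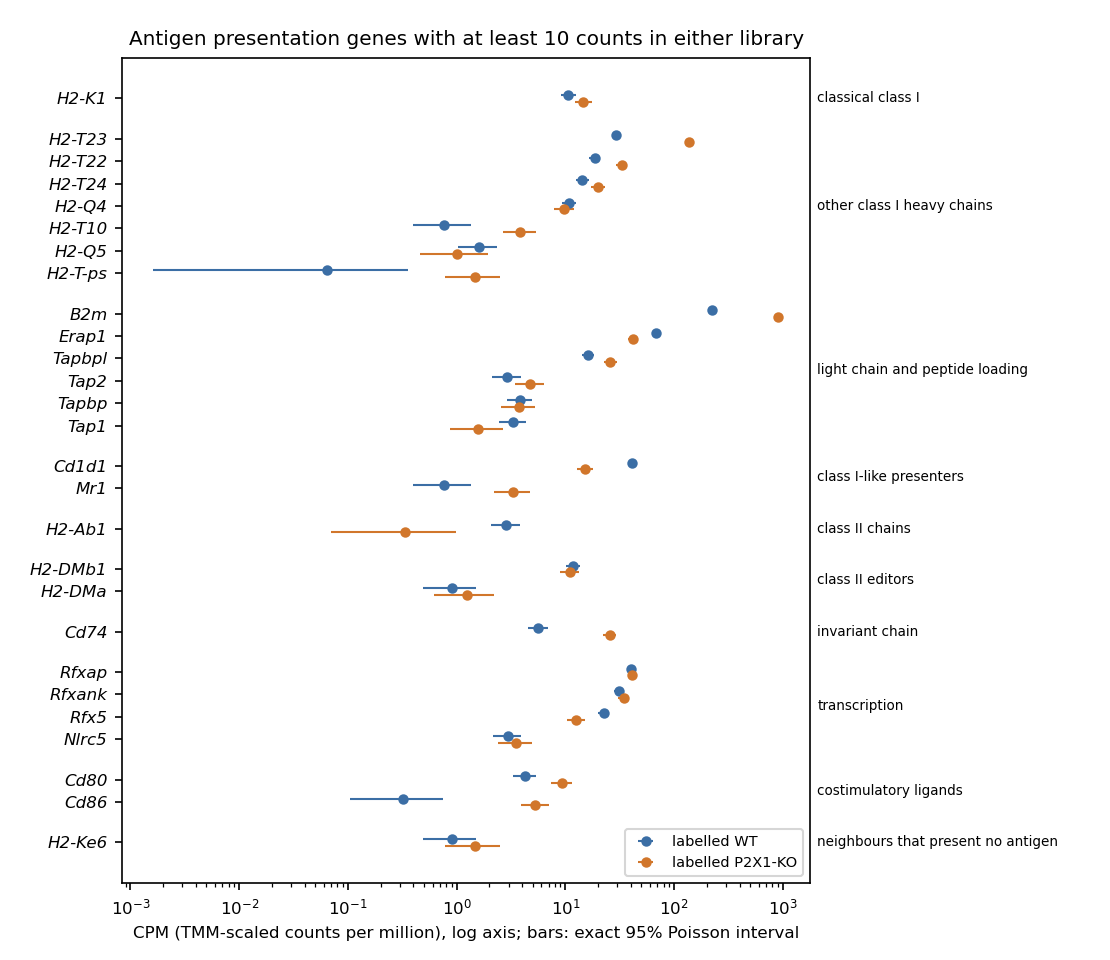
CPM of the 27 members with at least 10 counts in either library, on a log axis, by role. Blue points are the WT-labelled library and orange points the P2X1-KO-labelled library, with exact 95% Poisson intervals. B2m lies highest in both libraries, and its points, like those of H2-T23 and Cd74, stand well apart.

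B2m encodes the light chain shared by all class I molecules and by CD1D and MR1. In mm10 it occupies bases 122147686 to 122153083 of chromosome 2, on the plus strand. B2m had 3456 counts in the WT-labelled library and 7994 in the P2X1-KO-labelled library, which is 222 and 900.0 CPM. The difference was 4.06-fold (3.90 to 4.23), and none of its 50-base stretches occurs in the transcripts of another gene. After a correction of log2 differences for transcript length and GC content, which was chosen after the data were seen, its log2 difference was 1.56 instead of 2.02. The response element and the Y box in the B2m sequence above begin 139 and 53 bases before its start site. Per kilobase of exon, B2m stood at 258 CPM in the WT-labelled library and 1046 CPM in the P2X1-KO-labelled library, above each of the heavy chain genes.

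Of the class I heavy chains, H2-T23 differed most among those at 5 CPM or more, while the classical gene H2-K1 lay within 2-fold. H2-T23 encodes the Qa-1 heavy chain, a ligand of the CD94/NKG2A receptor of natural killer cells. It had 455 counts, or 29.2 CPM, in the WT-labelled library and 1216 counts, or 137 CPM, in the P2X1-KO-labelled library. The difference was 4.69-fold (4.21 to 5.24), beside 4.06-fold for B2m. After the length and GC correction the log2 difference of H2-T23 was 2.23, beside 1.56 for B2m. H2-K1 encodes the heavy chain of the classical molecule H-2K, which presents peptides to cytotoxic T cells. It had 166 and 130 counts, or 10.6 and 14.6 CPM, a 1.37-fold difference (1.08 to 1.74). Both genes lie on chromosome 17 on the minus strand, H2-K1 from 33996017 to 34000347 and H2-T23 from 36029773 to 36032855.

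The make-up of heavy chain counts does not depend on how the libraries are scaled. H2-T23 took 33.6% of them in the WT-labelled library (31.1 to 36.2) and 61.8% in the P2X1-KO-labelled library (59.6 to 63.9). The share of H2-K1 was 12.3% (10.6 to 14.1) and 6.61% (5.55 to 7.79). The share of H2-Q4 was 12.5% (10.8 to 14.4) and 4.42% (3.56 to 5.42). There were 2.55 counts of B2m per heavy chain count in the WT-labelled library and 4.06 in the P2X1-KO-labelled library. Both the light chain and H2-T23 thus held a larger part of the class I counts in the P2X1-KO-labelled library. These values describe counts only, because H2-D1 entered the sums at 0 and several other entries share sequence, as described below.

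**Figure D2:**
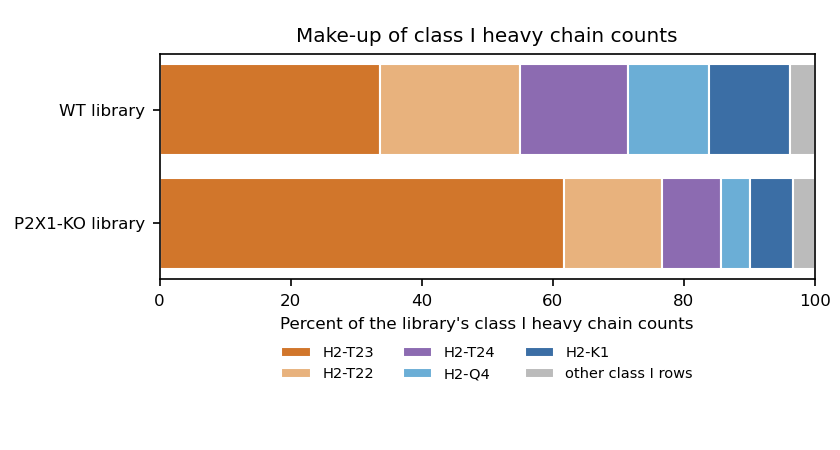
Share of each library's class I heavy chain counts, in percent, taken by H2-T23, H2-T22, H2-T24, H2-Q4, H2-K1 and all other class I entries. The H2-T23 segment is 33.6% in the WT-labelled library and 61.8% in the P2X1-KO-labelled library.

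The other heavy chain genes lay within 2-fold or below a mean of 5 CPM. H2-T22, known as a ligand of a subset of gamma delta T cells, had 18.5 and 32.9 CPM, a 1.77-fold difference (1.502 to 2.09). H2-T10, its close relative, had 12 and 34 counts, a 4.97-fold difference (2.51 to 10.5). Over 50-base stretches, 53.5% of H2-T22 and 50.4% of H2-T10 occur in the transcripts of other genes, so reads may have been exchanged and both values are uncertain. H2-T22 also overlaps A930015D03Rik, and H2-T10 overlaps BC023719, on the opposite strand. H2-T24 had 14.3 and 20.04 CPM, a 1.40-fold difference (1.14 to 1.71), and shares 3.17% of its stretches. H2-T-ps, annotated in GENCODE as an unprocessed pseudogene, had 1 and 13 counts. Its ratio was 22.8 (3.43 to 970), and it overlaps Gm7030 on the same strand and BC023719 on the opposite strand. H2-T-ps shares 29.4% of its stretches with other genes, chiefly with H2-T23, so reads may have been exchanged and its value is uncertain. In the Q region, H2-Q4 had 10.8 and 9.79 CPM, and its interval of 1.45-fold lower to 1.18-fold higher includes no difference. H2-Q5 had 25 and 9 counts, a ratio of 1.58 in favour of the WT-labelled library (0.715 to 3.85). H2-Q4 and H2-Q5 share 36.4% of their stretches each with other genes, so their values are uncertain too, and H2-Q4 overlaps Gm11131 on the opposite strand.

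H2-D1, the second classical heavy chain gene of this strain, was listed at 0 in both libraries. A count of 0 allows up to 0.192 CPM in the WT-labelled library and 0.338 CPM in the P2X1-KO-labelled library, for counting error only. Of the 2591 distinct 50-base stretches in its GENCODE transcripts, 331 (12.8%) occur in transcripts of another gene. H2-T23, with 14.5% shared, was counted in both libraries. Whether H2-D1 was expressed in these cells cannot be read from this 0, since the sources used here do not say how reads were assigned to genes. Of 38 class I heavy chain entries, 26 were at 0 in both libraries, among them H2-Q6, H2-Q7, H2-Q8, H2-Q9, H2-T3 and the H2-M10 genes. For the 20 of these that were matched to GENCODE, the shared part ranged from 0 to 35.0% with a median of 4.32%. It ranged from 3.17% to 53.5% with a median of 32.9% for the 8 entries with at least 10 counts in either library. The median was thus smaller among entries at 0, but H2-Q6 and H2-Q7, both at 0, shared 35.0% and 26.5%. H2-K1, which was counted, shared 9.63%. Whether shared sequence had a part in the counts of 0 was not tested. H2-K2 had 7 and 6 counts, H2-M3 had 2 and 3, H2-Q10 had 4 and 0, and H2-Bl had 1 and 0. Besides those named, the class I entries at 0 were H2-D4, H2-M1, H2-M2, H2-M4-ps, H2-M5, H2-M6-ps, H2-M9, H2-M11, H2-Q1, H2-Q2, H2-Q3, H2-T18 and H2-t3-like.

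**Figure D3:**
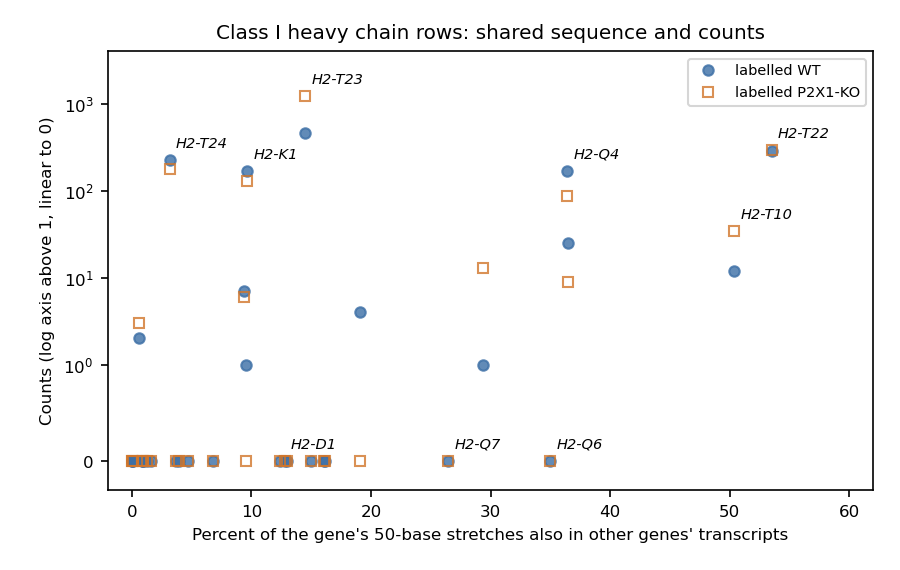
Counts of the class I heavy chain entries matched to GENCODE against the percent of their 50-base stretches that also occur in other genes' transcripts; the count axis is logarithmic above 1 and linear to 0. Filled circles are the WT-labelled library and open squares the P2X1-KO-labelled library. H2-D1 lies at 0 with 12.8% shared, between H2-K1 and H2-T23, which were counted in both libraries.

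None of the genes for peptide transport, loading and trimming was 2-fold higher, unlike B2m. Tap1 and Tap2 encode the subunits of the peptide transporter. Tap1 had 51 counts in the WT-labelled library and 14 in the P2X1-KO-labelled library, 2.08-fold lower in the latter (1.13 to 4.06). Tap2 had 45 and 42 counts, 1.64-fold higher (1.05 to 2.55), and overlaps Gm15821 and Gm20496 on the opposite strand. Tapbp, encoding tapasin, stood at 3.78 and 3.72 CPM, overlaps Zbtb22 on the same strand and shares 23.2% of its stretches. Its relative Tapbpl had 16.2 and 25.9 CPM, 1.60-fold higher (1.33 to 1.92). Erap1, the trimming peptidase gene, had 67.9 and 41.5 CPM, 1.63-fold lower (1.45 to 1.84). Its log2 difference was -0.70, and -0.26 after the length and GC correction. Erap1 overlaps Cast on the opposite strand, so part of its reads may belong to that gene.

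Tap1 and the immunoproteasome gene Psmb9 lie head to head on chromosome 17 and overlap by 212 bases in GENCODE. Psmb9, named after its values were seen, had 20 and 6 counts, a ratio of 1.90 in favour of the WT-labelled library (0.736 to 5.78). Psmb8, the immunoproteasome gene on the other side of Tap1, had 32 and 113 counts, 6.20-fold higher in the P2X1-KO-labelled library (4.15 to 9.49). It overlaps Gm20496 on the opposite strand. Tap1 and Psmb8, neighbours on chromosome 17, thus differed in opposite directions, while the interval of Psmb9 includes no difference. Of the 5 listed genes of the immunoproteasome and its PA28 activator, 4 reached 5 CPM. Psmb8 was higher by 2-fold or more and 0 were lower by as much, beside 12.1% and 10.6% of all genes at that level. Psme1, Psme2 and Psmb10 were 1.66-fold (1.58 to 1.74), 1.38-fold (1.25 to 1.53) and 1.27-fold (1.17 to 1.38) higher. Psme2 shares 28.3% of its stretches with other genes, so its value is uncertain. The constitutive subunits Psmb5, Psmb6 and Psmb7 were all within 2-fold. As a share of the summed counts of each immunoproteasome subunit and its constitutive counterpart, Psmb8 stood at 1.69% (1.16 to 2.37) in the WT-labelled library and 6.20% (5.14 to 7.41) in the P2X1-KO-labelled library. On this measure Psmb9 stood at 14.8% (9.29 to 21.9) and 6.25% (2.33 to 13.1), and Psmb10 at 43.3% (41.5 to 45.1) and 44.3% (42.2 to 46.4). The 5 folding factors of the endoplasmic reticulum were also within 2-fold, and Calr, encoding calreticulin, was 1.62-fold higher (1.58 to 1.66).

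**Figure D4:**
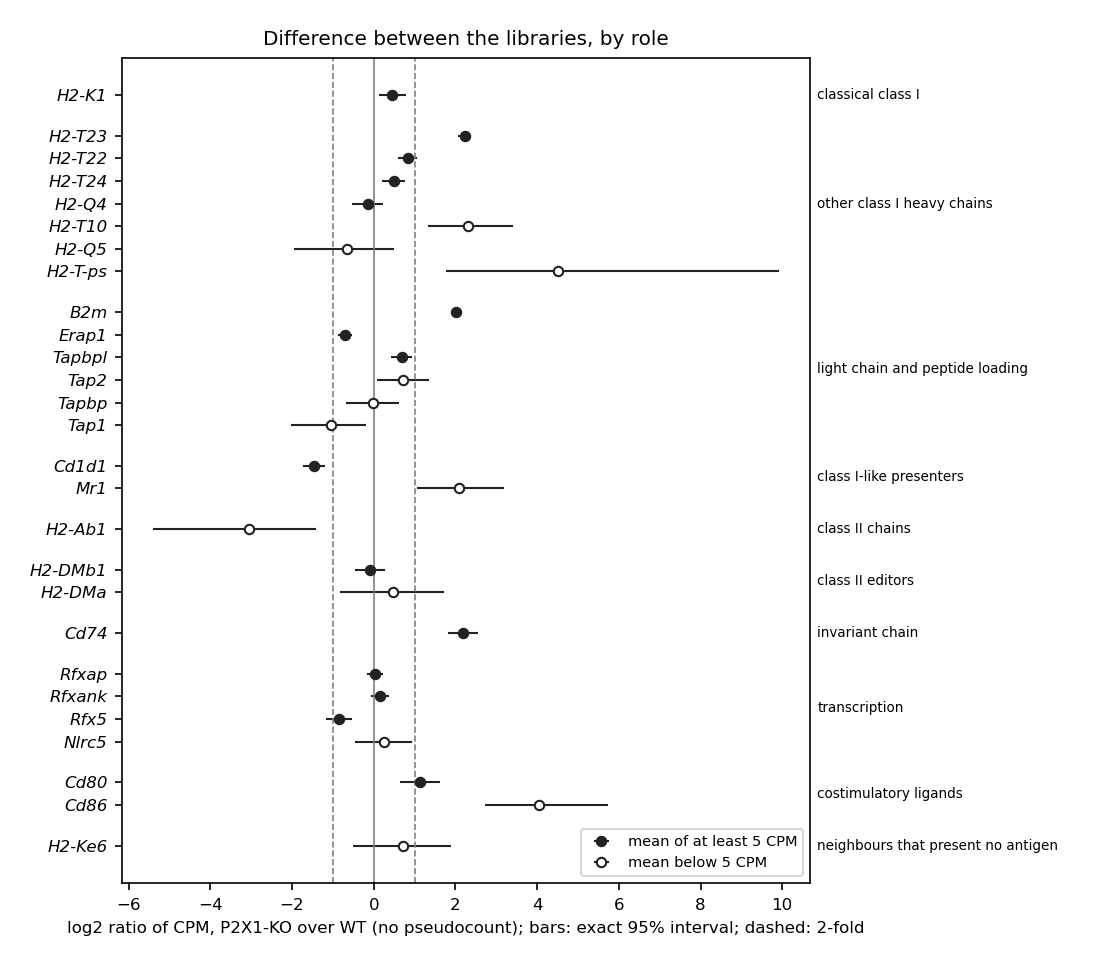
log2 ratio of CPM in the P2X1-KO-labelled library over the WT-labelled library for the 27 members with at least 10 counts in either library, without a pseudocount, with exact 95% intervals. Filled points have a mean of at least 5 CPM. The intervals of B2m, H2-T23 and Cd74 lie to the right of the dashed 2-fold line, and that of Cd1d1 to the left of its counterpart.

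The class I-like presenters differed in opposite directions. Cd1d1 encodes CD1D, which presents lipids to natural killer T cells. It had 644 counts, or 41.3 CPM, in the WT-labelled library and 134 counts, or 15.1 CPM, in the P2X1-KO-labelled library. That is 2.74-fold lower (2.27 to 3.32). The gene occupies bases 86995834 to 86999441 of chromosome 3, minus strand. Cd1d1 shares 19.1% of its 50-base stretches with other genes, chiefly with its neighbour Cd1d2, so reads may have been exchanged. Mr1, which presents vitamin B metabolites to mucosal-associated invariant T cells, had 12 and 29 counts, 4.24-fold higher (2.10 to 9.13). Both proteins pair with the light chain that B2m encodes.

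Class II chain genes other than H2-Ab1 had at most 2 counts, while the invariant chain gene Cd74 was measured in both libraries and was higher in the P2X1-KO-labelled library. Cd74 had 88 counts, or 5.64 CPM, in the WT-labelled library and 227 counts, or 25.6 CPM, in the P2X1-KO-labelled library. The difference was 4.53-fold (3.52 to 5.86), and no 50-base stretch of Cd74 is shared with another gene. H2-Ab1, the beta chain gene of I-A, went the other way with 44 and 3 counts, a ratio of 8.36 in favour of the WT-labelled library (2.68 to 42.1). H2-Aa, which encodes the alpha chain that pairs with it, had 1 and 2 counts. H2-Eb1 and H2-Eb2, whose X1 boxes are shown above, had 0 and 1 and 1 and 0 counts. H2-Ea-ps, the inactive alpha chain gene of the I-E molecule in this strain, was at 0 in both. A complete pair of class II chains was thus not detectable above a few counts in either library. Of the H2-Ab1 and Cd74 counts together, H2-Ab1 made up 33.3% in the WT-labelled library (25.4 to 42.1) and 1.30% in the P2X1-KO-labelled library (0.270 to 3.76).

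Of the 5 peptide editor genes, H2-DMb1 was the 1 that reached a mean of 5 CPM. H2-DMb1, a beta chain gene of the DM editor, had 183 and 98 counts, or 11.7 and 11.0 CPM, and its interval of 1.37-fold lower to 1.21-fold higher includes no difference. It shares 22.7% of its stretches with other genes, chiefly with H2-DMb2, which was at 0 in both libraries. H2-DMa, the alpha chain gene, had 14 and 11 counts and overlaps Brd2 on the opposite strand. H2-Oa had 1 and 0 counts and H2-Ob had 1 and 2. Per kilobase of exon, H2-DMb1 stood at 6.98 CPM in the WT-labelled library and 6.56 CPM in the P2X1-KO-labelled library, against 0.260 and 0.359 CPM for H2-DMa, so the levels of the beta and alpha chains of this dimer were far apart in both.

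Markers of other cell types, among them cells that express class II genes and Cd74, also differed between the libraries, and their part in these results was not tested. Of 9 macrophage genes, 7 reached 5 CPM. Of these 7, 6 were higher by 2-fold or more in the P2X1-KO-labelled library, beside 12.1% of all genes at that level. The remaining 1, Vcam1, was lower by as much, beside 10.6% of all genes. The 9 macrophage genes summed to 163 CPM in the WT-labelled library and 630 CPM in the P2X1-KO-labelled library, with Mrc1 and Cd163 at 0 in the latter. The 6 monocyte genes summed to 761 and 4944 CPM, with Ly6c2 at 546 and 497 CPM and Lyz2 at 170 and 4207 CPM. Of the 5 monocyte genes that reached 5 CPM, 4 were higher by 2-fold or more, beside 12.1% of all genes. The 9 dendritic cell genes summed to 78.1 and 69.1 CPM, most of it Flt3, which had 1122 and 421 counts. Of these dendritic cell genes, 4 had at least 10 counts in either library, and 3 of them were higher by 2-fold or more, beside 16.1% of all genes at that level. These were Itgax with 88 and 147 counts, Cd209a with 0 and 15, and Batf3 with 1 and 13. Cd209a and Batf3 reached 10 counts only in the P2X1-KO-labelled library, where they were high. Clec10a had 0 and 8 counts, Xcr1 had 2 and 0, and Ccr7 was at 0 in both libraries. Siglech, Ccr9 and Ly6d of the 6 plasmacytoid dendritic cell genes were at 0 in both, and the list summed to 232 and 189 CPM, with Runx2 at 190 and 95.6 CPM and Bst2 at 17.1 and 53.9 CPM. The 7 B cell genes summed to 16.5 and 49.5 CPM, most of it Cd79b, while Pax5, Ebf1, Ms4a1 and Blk were at 0 in both. The 7 T cell genes summed to 2.18 and 1.13 CPM, with Cd3g, Cd4, Cd8a and Cd28 at 0 in both, and the 5 natural killer genes had 1 count in all. Eosinophil genes summed to 5.96 and 184 CPM. Of these, Prg2 had 8 and 1149 counts and Siglecf 84 and 477, while Il5ra and Ccr3 were at 0 in both. Mast cell and basophil genes summed to 48.1 and 109 CPM, but in opposite directions. Cpa3 had 1 and 166 counts and Gata2 215 and 589, whereas Mcpt8 had 530 and 204 and was 1.48-fold lower. Fcer1a was at 0 in both. Endothelial genes summed to 12.5 and 43.0 CPM, most of it Pecam1, while Kdr, Emcn and Tek were at 0 in both. Erythroid genes summed to 0.962 and 2.14 CPM. The 6 stromal genes summed to 94.1 and 250.2 CPM, but in opposite directions: Pdgfrb had 93.1 and 47.1 CPM, whereas Col1a1 had 15 and 1327 counts, Col3a1 0 and 264, and Col1a2 0 and 213. Dcn and Lum were at 0 in both.

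Neither master regulator was abundant. Ciita, the class II coactivator gene, had 3 counts in the WT-labelled library and 0 in the P2X1-KO-labelled library. Nlrc5, the class I coactivator gene, had 46 and 31 counts, or 2.95 and 3.49 CPM, a ratio of 1.18 (0.725 to 1.91), and overlaps 9330175E14Rik on the opposite strand. The RFX genes were measured in both. Rfxap had 40.4 and 41.3 CPM, and Rfxank had 30.8 and 34.2 CPM. Rfx5, the DNA-binding subunit gene, had 22.4 and 12.5 CPM, 1.79-fold lower (1.44 to 2.24). Rfx5 and Rfxank overlap a gene on the opposite strand, B230398E01Rik and Nr2c2ap respectively, and 22.3% and 31.0% of their stretches occur in other genes.

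The costimulatory ligands CD80 and CD86, which engage CD28 on T cells, were both higher in the P2X1-KO-labelled library. Cd80 had 66 and 82 counts, or 4.23 and 9.23 CPM, 2.18-fold higher (1.56 to 3.06). Cd86 had 5 and 47 counts, a ratio of 16.5 (6.59 to 53.2), at 0.321 and 5.29 CPM. Cd86 made up 7.04% of the counts of both ligands (2.33 to 15.7) in the WT-labelled library and 36.4% (28.1 to 45.4) in the P2X1-KO-labelled library. H2-Ke6, an H2-named gene that encodes a steroid dehydrogenase and presents no antigen, had 14 and 13 counts and shares 70.5% of its stretches with Gm20427. H2-Pa, a pseudogene, was at 0.

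Over the 27 members with at least 10 counts in either library, 8 were higher by 2-fold or more and 3 were lower by as much. Of all 14796 genes at that level, 16.1% were higher and 18.1% lower by 2-fold or more. Intervals lay wholly beyond 2-fold in 7 higher members (25.9%), against 10.3% of all genes, and in 2 lower members (7.41%), against 9.08%. The higher members were B2m, H2-T23, H2-T10, H2-T-ps, Cd74, Cd80, Cd86 and Mr1, and the lower ones Cd1d1, H2-Ab1 and Tap1. Of these, H2-T-ps and Cd86 reached 10 counts only in the P2X1-KO-labelled library, and H2-Ab1 only in the WT-labelled library. The filter thus admitted these members through the library where they were high, and their directions are not independent of it. The shares over all genes used the same filter. Summed by role, the share of all counts was 4.002 times as large in the P2X1-KO-labelled library for the invariant chain (3.12 to 5.18), 2.82 times for the costimulatory ligands (2.09 to 3.82), 2.74 times for the light chain and peptide loading (2.64 to 2.84) and 2.40 times for the heavy chains other than H2-K1 and H2-D1 (2.23 to 2.58). B2m held most of the counts for the light chain and peptide loading, and the other 5 genes had 1465 and 688 counts, a share 0.729 times as large (0.665 to 0.798). H2-T23 held 455 of the 1188 counts of the heavy chains other than H2-K1 and H2-D1 in the WT-labelled library. In the P2X1-KO-labelled library it held 1216 of 1838. The share was 0.386 times as large for the class I-like presenters (0.323 to 0.458), 0.202 times for the class II chains (0.0706 to 0.475) and 0.836 times for the transcription genes (0.767 to 0.912). Cd1d1 held 644 of the 656 presenter counts in the WT-labelled library, while Mr1 was 4.24-fold higher in the other. H2-Ab1 held 44 of the 46 class II chain counts in the WT-labelled library. Intervals included 1 for H2-K1 with H2-D1 (0.958 to 1.54), the class II editors (0.680 to 1.10) and the neighbours that present no antigen (0.624 to 3.30).

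Several genes of the endosomal class II route were higher in the P2X1-KO-labelled library. Of the listed interferon-induced genes, 4 reached 5 CPM, and 2 of these were lower there by 2-fold or more. Of 10 listed endosomal genes 8 had an entry under their symbol, and 7 reached 5 CPM. Of these 7, 4 were higher by 2-fold or more and 0 lower by as much, beside 12.1% and 10.6% of all genes at this level. Ctss, encoding the protease that degrades the invariant chain, had 59.0 and 510 CPM, 8.64-fold higher (8.05 to 9.28). Lgmn, an endosomal endopeptidase gene, was 8.80-fold higher (6.87 to 11.4). Ifi30, encoding a thiol reductase that unfolds antigens, was 5.16-fold higher (4.79 to 5.55), and Ctsb, a cathepsin gene, 3.48-fold higher (3.35 to 3.61). The median log2 difference of the 7 was 1.80, beside -0.08 over all genes at this level.

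Of 16 listed interferon-induced genes, 12 had at least 10 counts in either library, of which 8 were lower by 2-fold or more, beside 18.1% of all genes at that level. Cxcl10 and Isg15, named after their values were seen, were the 2 that were higher by as much, beside 16.1% of all genes, with 4 and 16 and with 10 and 15 counts. Of the 8 lower genes, Ifit2, Oasl2, Usp18, Ifit1, Gbp2 and Rsad2 reached 10 counts only in the WT-labelled library. Cxcl10 reached 10 counts only in the P2X1-KO-labelled library. The filter thus admitted these genes through the library where they were high, so their directions are not independent of it. The shares over all genes used the same filter. Gbp3, a guanylate-binding protein gene, had 52.0 and 10.02 CPM, 5.18-fold lower (4.16 to 6.53). Ifit2 had 134 and 7 counts, 10.9-fold lower (5.15 to 27.6). Oasl2 had 31 and 0 counts and Usp18 22 and 0. Set against a floor of 3 counts in the P2X1-KO-labelled library, they were lower by 5.89-fold and 4.18-fold. The lower ends of their exact intervals were 4.51-fold and 3.12-fold. At a mean of 5 CPM, 4 of the list were left, 2 of them at least 2-fold lower, beside 10.6% of all genes, and 0 higher, beside 12.1%. B2m, H2-T22 and H2-T23, whose windows hold the response element shown above, had ratios of 4.06, 1.77 and 4.69.

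Genes that carry interferon signals or assemble on MHC promoters mostly lay within 2-fold. Of 18 listed, all at 5 CPM or more, 15 lay within 2-fold. Over all genes at this level, 22.7% were at least 2-fold apart. Irf8, a transcription factor gene of the monocyte and dendritic lineages, had 25.9 and 170 CPM, 6.58-fold higher (5.89 to 7.36). Irf2, whose product also binds the response element, was 2.39-fold higher (2.12 to 2.70), and Socs1, an inhibitor of interferon signalling, 2.59-fold lower (1.99 to 3.40). Ifngr1, encoding a chain of the interferon gamma receptor, was 1.42-fold higher (1.37 to 1.48). The median log2 difference of this list was 0.22.

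Among 11 other ligands seen by T cells, 5 reached 5 CPM, with 2 at least 2-fold higher and 1 lower, beside 12.1% and 10.6% of all genes. Cd274, encoding the inhibitory ligand PD-L1, had 59 and 244 counts, 7.26-fold higher (5.44 to 9.82). Vsir, encoding the inhibitory ligand VISTA, was 2.36-fold higher (2.25 to 2.47), and Icam1, an adhesion ligand gene, 2.32-fold lower (2.03 to 2.66). Cd40, below 5 CPM, had 2 and 18 counts, a ratio of 15.8 (3.78 to 140).

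**Figure D5:**
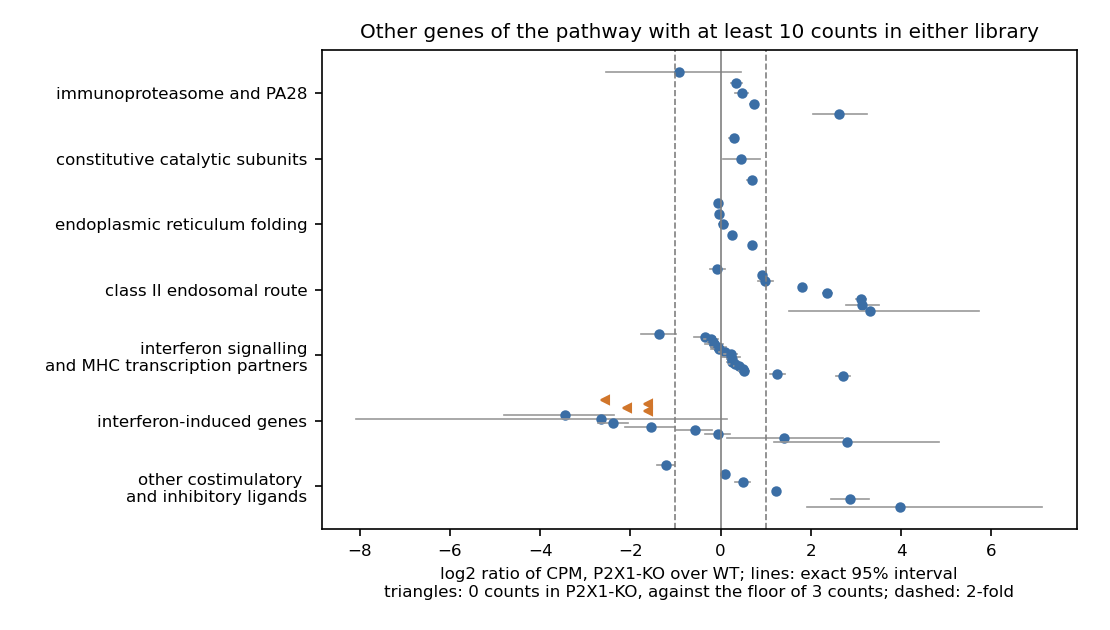
log2 ratio of CPM in the P2X1-KO-labelled library over the WT-labelled library for the other listed genes with at least 10 counts in either library, 1 point per gene, with exact 95% intervals. Orange triangles are genes at 0 in the P2X1-KO-labelled library, placed against a floor of 3 counts. All endosomal genes but Sppl2a lie right of 0, and most interferon-induced genes left of it.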

How the data were processed

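Each library's column, as deposited, holds raw counts of reads for each symbol, with no normalization by the authors. The submitters' processing notes name HISAT2 2.0.4 for alignment and mm10 as the build. The sources used here do not give the counting tool, annotation, strand setting or handling of reads with several matches, so overlapping genes on opposite strands cannot be told apart. The 66 members and all gene lists were chosen with earlier results of these data known. Scaling used TMM (edgeR 4.0.16, R 4.3.3), with scaled sizes of 15591519 (WT) and 8882591 (P2X1-KO). Folds are ratios of CPM; intervals are exact (Clopper-Pearson for a ratio or share, Poisson for a count; scipy 1.17.1) and were tested on simulated data. Reads without molecular identifiers are not independent molecules, so intervals and the floor of 3 counts cover counting error only. The deeper WT library has the narrower intervals at a given CPM. log2 differences used a pseudocount of 0.5 CPM. Called genes had a mean of at least 5 CPM and a 2-fold ratio. The text names each member with at least 10 counts in either library or a mean of at least 5 CPM, and from each other list up to 4 genes by the interval bound nearest to no change; marker genes are named where they were at 0 or held most of a list's level. Coordinates, exon lengths and 50-base stretches came from GENCODE M21 (mm10), to which 60 members were matched; promoters came from RefSeq (GRCm38.p6). March1 and March8 had no entry under their symbols and were left out. Alternatives were other scalings (including DESeq2 1.42.0 size factors), filters, pseudocounts, member sets and a length and GC correction.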

Additional observations from a re-analysis of the deposited data

How the results depend on the processing

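No paired analysis was possible because there was 1 library per group. No called member changed direction under the alternatives run. The sign changed for 3 members near no difference: the log2 difference of Rfxank was 0.15, but -0.02 with total counts and -0.01 with total counts without the 20 most abundant genes; that of Rfxap was 0.03, but -0.14 and -0.13; that of Tapbp was -0.02, but 0.05 with upper-quartile scaling. With total counts, or total counts without the 20 most abundant genes, 2 members instead of 1 were at least 2-fold lower, and the members' median log2 difference was 0.27 or 0.29 instead of 0.44. Under these scalings the median of all genes also fell, to -0.26 and -0.25 from -0.08, and 15.3% and 15.2% of all genes were at least 2-fold lower. The members' median was 0.31 with no filter beyond 1 count and 0.15 without heavy chains other than H2-K1 and H2-D1. Counts of members depended on the filter. The higher and lower counts were 4 and 1, but 7 and 3 at a mean of 1 CPM, 8 and 3 at 10 counts, and 12 and 8 with no filter. Those whose whole interval lay beyond 2-fold were 3 and 1, but 6 and 2, 7 and 2, and 7 and 2 in the same order. The length and GC correction, added after the data were seen, left 4 higher and 1 lower. With 1 library per group, and with counts under 100 for many members, differences short of about 2-fold were often within counting error. Shares by role stayed inside their intervals when the 20 most abundant genes left the totals.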
